A study of Mus musculus with 6 samples.

Results

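Hypoxia-inducible factor 1 (HIF-1) genes were read from an RNA-sequencing experiment on Raw264.7 cells, a mouse macrophage line derived from a tumor induced by Abelson murine leukemia virus. The 10 genes were chosen by symbol as the factors themselves, their oxygen-sensing hydroxylases and HIF-1 targets outside glycolysis, and all 10 were found among the 24786 gene symbols of the deposited table. Cells infected with a control shRNA lentivirus (sh-NC, n = 3 libraries) were compared with cells infected with a lentivirus that expressed an *Etv5* shRNA (sh-*Etv5*, n = 3 libraries). The labels give 24 or 48 hours after infection for both groups, whereas the study's methods describe puromycin selection of lentivirus-infected cells over further passages and its results speak of stable transfection before sequencing, so the time of harvest is uncertain. For all 6 libraries the labels list strain C57BL/6 and postnatal day 21, although Raw264.7 is generally described as a line from BALB/c mice. The sources used here do not say which *Etv5* shRNA was sequenced, whether the cells were 1 clone or a mixed population, or whether infections were done separately for each library, so the p-values measure only the spread between these libraries.

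HIF-1 is a pair of proteins, an oxygen-regulated α subunit encoded by *Hif1a* and a constant partner, ARNT. In oxygenated cells the EGLN hydroxylases modify prolines of the α subunit, which is then bound by the VHL ubiquitin ligase and degraded; when oxygen falls, the α subunit persists and the pair binds a short DNA core near its target genes. In macrophages HIF-1 is also engaged by inflammatory signals, and its targets serve glycolysis, mitochondrial removal, collagen maturation and vessel growth. Because this control acts largely on the protein, a transcript level of *Hif1a* does not report HIF-1 activity, and target transcripts are read beside it. Among the targets, *Ddit4* and *Ndrg1* are also induced by endoplasmic reticulum (ER) stress without HIF, *Ddit4* through the stress factor ATF4, whereas *Egln1*, *Egln3*, *Ankrd37*, *Bnip3*, *P4ha1* and *Adm* are taken here as the more HIF-specific ones. *Adm* is known to respond to inflammatory stimuli as well.

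The HIF core is ACGTG or GCGTG, on either strand. Upstream sequences of 250 bases, ending at the RefSeq transcript start on GRCm38.p6, were found for 8 of the 10 genes; *Epas1* and *Ndrg1* had no entry. All 8 held at least 1 core, as did 38.6% of the 32851 upstream windows in the RefSeq table. Both cores contain the pair CG, which the 8 windows held between 7 (*Adm*) and 51 (*Egln1*) times. The share over all windows was not matched for CG, and the genes were chosen as HIF genes, so enrichment of cores was not tested. The windows are shown for the 4 called genes with the largest changes and an entry, 3 that rose and 1 that fell, with bases of a HIF core in capitals.
*Ddit4* (chr10:59951771-59952020, minus strand): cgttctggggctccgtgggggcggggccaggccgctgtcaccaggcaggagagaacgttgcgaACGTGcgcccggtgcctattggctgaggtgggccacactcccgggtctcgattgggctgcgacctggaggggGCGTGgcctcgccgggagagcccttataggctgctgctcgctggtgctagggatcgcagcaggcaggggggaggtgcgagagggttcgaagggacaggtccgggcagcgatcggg
*Adm* (chr7:110627407-110627656, plus strand): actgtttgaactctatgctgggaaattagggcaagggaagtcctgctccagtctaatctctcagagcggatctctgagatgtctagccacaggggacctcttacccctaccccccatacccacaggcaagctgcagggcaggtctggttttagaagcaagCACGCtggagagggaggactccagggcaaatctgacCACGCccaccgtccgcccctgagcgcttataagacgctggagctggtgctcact
*Bnip3* (chr7:138909507-138909756, minus strand): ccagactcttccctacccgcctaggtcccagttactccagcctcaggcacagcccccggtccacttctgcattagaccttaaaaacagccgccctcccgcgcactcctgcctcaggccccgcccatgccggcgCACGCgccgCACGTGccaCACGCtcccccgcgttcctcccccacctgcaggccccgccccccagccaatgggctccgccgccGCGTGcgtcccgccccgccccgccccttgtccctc
*Ankrd37* (chr8:45999851-46000100, minus strand): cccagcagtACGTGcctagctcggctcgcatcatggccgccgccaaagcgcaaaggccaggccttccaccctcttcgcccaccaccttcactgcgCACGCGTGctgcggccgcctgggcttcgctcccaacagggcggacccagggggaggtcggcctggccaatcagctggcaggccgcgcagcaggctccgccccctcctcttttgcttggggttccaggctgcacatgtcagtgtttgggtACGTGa

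*Ankrd37*, the gene of the 4 that fell, held 4 cores, ACGTG at 241 and 6 bases before the start and an overlapping pair of GCGTG matches on opposite strands. Its window lies inside the GENCODE M21 span of the gene, which begins farther upstream. *Bnip3* held 5, in which ACGTG matched on both strands of the same CACGTG. *Ddit4* held 1 core of each kind, at 187 and 115 bases before the start. *Adm* held 2 GCGTG cores on the opposite strand, which read CACGC, at 90 and 54 bases before the start. In the other windows, *Hif1a* held 3 matches, *P4ha1* 3, *Egln1* 2 and *Egln3* 1. The *Hif1a* window, like that of *Ankrd37*, lies inside the GENCODE M21 span of its gene. For *Hif1a* and *Egln3*, sequence just past the RefSeq start was not found in the GENCODE transcripts of the gene. The number of cores did not separate the gene that fell from those that rose. The ATF4 element core TGATGNAA (3.45% of all windows) and the ER stress element (CCAAT and CCACG with 9 bases between them, 0.113%) were searched on both strands. So was an extended ETS site, CCGGAAG (6.91%). None of these matched in the 8 windows. The shorter GGAA inside the ETS site was not part of this search. It occurs, as GGAA or its complement TTCC, in the *Adm*, *Bnip3* and *Ankrd37* windows and not in that of *Ddit4*. It also occurs in the windows of *Hif1a*, *P4ha1*, *Egln1* and *Egln3*, so it does not single out 1 gene. The windows do not reach more distant elements. The CACG at the end of the ER stress element can overlap a HIF core on the other strand.

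**Figure D1:**
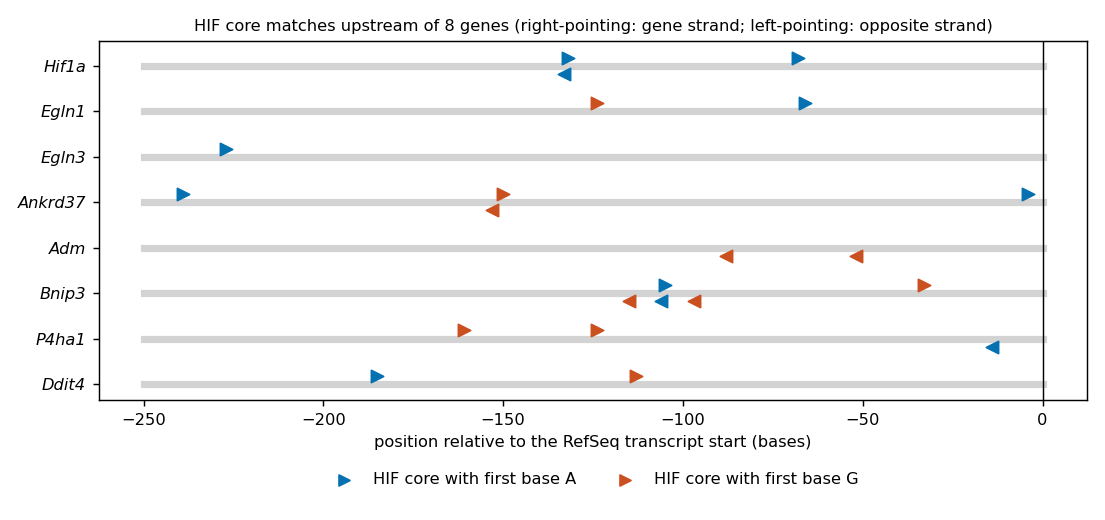
Positions of HIF cores in the 250 bases before the RefSeq transcript start of 8 genes; the x axis is the distance from the start in bases, and triangles point right for the gene strand and left for the opposite strand. *Bnip3* holds 5 matches and *Ankrd37* 4, whereas *Egln3* holds 1.

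Levels are deposited RPKM values, reads per kilobase of gene scaled to mapped reads, which allows levels of different genes to be set side by side. Groups were compared with limma on log2(RPKM + 1) over the 10738 genes with at least 1 RPKM in at least 3 libraries, and a call required an adjusted p (Benjamini-Hochberg, over all these genes) under 0.05. Read depth is not known from RPKM, and for a single gene the smallest exact permutation p that 3 against 3 libraries allow is 0.1. *Etv5*, the gene targeted, was at 9.18, 9.89 and 9.39 RPKM in sh-NC and at 5.19, 4.91 and 5.28 RPKM in sh-*Etv5* libraries. Of 10 macrophage markers, 9 passed the filter, and their summed level lay between 4490 and 4616 RPKM in sh-NC and between 3587 and 3704 RPKM in sh-*Etv5* libraries, while *Mertk* was at most 0.0653 RPKM. The markers did not move one way, since 4 rose, among them *Adgre1* (2.60 ± 0.119 to 11.3 ± 0.757 RPKM) and *Itgam* (33.8 ± 0.746 to 127 ± 7.21 RPKM), 4 fell, among them *Csf1r* (428 ± 4.56 to 244 ± 6.72 RPKM) and *Lyz2* (2834 ± 40.3 to 2041 ± 54.2 RPKM, the largest part of the sum), and 1 was not called. Of 14 markers of other cell types only *S100a8*, a neutrophil gene, passed, at 0.306 ± 0.184 against 17.1 ± 2.29 RPKM (SD, n = 3), and the neutrophil marker *Ly6g* was listed at 0 in all 6 libraries. The summed level of the 14 was between 0.530 and 0.893 RPKM in sh-NC and between 16.9 and 21.0 RPKM in sh-*Etv5* libraries, or between 0.245 and 0.407 and between 1.23 and 1.34 RPKM without *S100a8*, and their part in the results was not tested. In bulk RNA, fewer cells of a type and less RNA per cell cannot be told apart.

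Of the 8 genes tested, 5 rose, 2 fell and 1 was not called in sh-*Etv5* cells. For comparison, the share called over all 10738 genes was 33.3% higher and 41.0% lower, 74.3% in either direction, so that being called is the common outcome in this comparison and the size and direction of each change carry the description. *Epas1* and *Egln3* did not reach the filter, and *Adm* reached it only through the sh-*Etv5* libraries, so its inclusion depended on its being high there. The median log2 fold change of the 8 genes was 0.66, against -0.05 for all genes tested. Without *Adm*, 4 of 7 genes rose, 2 fell and the median was 0.39. Of the 10340 genes that did not reach the filter through 1 group only, 3291 were higher and 4289 lower, with a median of -0.06. All 7 called genes had groups that did not overlap, 5 with the sh-*Etv5* libraries above and 2 with them below, which was also true of 34.3% and 42.1% of all genes tested, 76.4% together. A called log2 fold change above 1 was found for 3 of the 8 genes (*Ddit4*, *Adm* and *Ndrg1*) and for 6.23% of all genes tested. Both figures include genes that, like *Adm*, reached the filter through 1 group only.

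**Figure D2:**
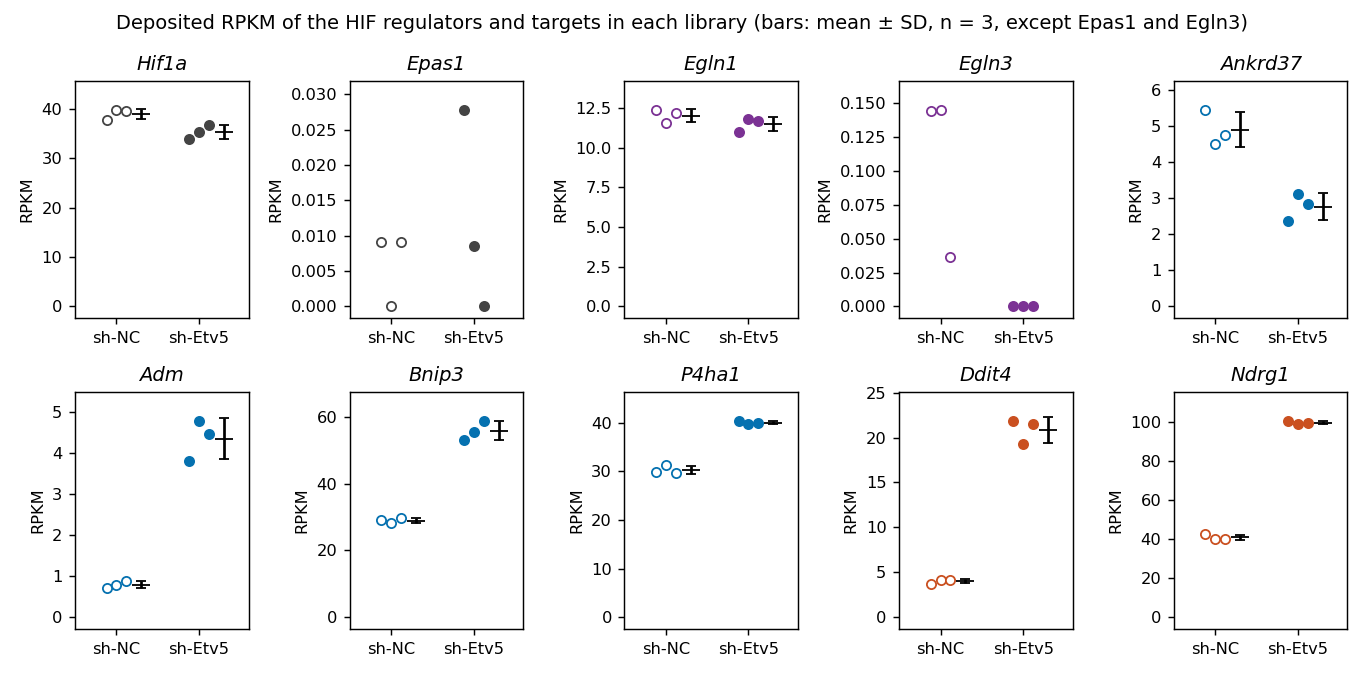
RPKM (y axis) of each of the 10 genes in the 3 sh-NC (open) and 3 sh-*Etv5* (filled) libraries, with the mean and SD (n = 3) beside the points except for *Epas1* and *Egln3*. The groups lie apart for *Ddit4*, *Ndrg1*, *Adm*, *Bnip3*, *P4ha1* and *Ankrd37*, and they overlap for *Egln1* and *Epas1*.

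The factor itself was lower, by a small margin. *Hif1a* (GRCm38 chromosome 12, 73901375 to 73947530, plus strand) had values of 37.7, 39.6 and 39.5 RPKM in sh-NC libraries, against 33.9, 35.4 and 36.7 RPKM after *Etv5* knockdown. The highest sh-*Etv5* library lay just under the lowest sh-NC library. Its mean of 38.9 ± 1.09 RPKM fell by 9.28% to 35.3 ± 1.42 RPKM (SD, n = 3), or by 0.14 on the log2 scale (log2 fold change -0.14, 95% confidence interval -0.23 to -0.04, limma adjusted p = 0.0121). This call was lost without sh-*Etv5* replicate 1, where the log2 fold change was -0.11 (limma adjusted p = 0.0520), with quantile normalization (limma adjusted p = 0.0685) and without the filter on low values (limma adjusted p = 0.0543). *Gm15283*, an antisense gene, covers 5.60% of the annotated exonic bases of *Hif1a*, and the sources used here do not state whether counting used strand.

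*Epas1* (chromosome 17, 86753700 to 86833410, plus strand), which encodes the HIF-2α subunit, was near 0 in both groups. It was listed at 0.00906, 0 and 0.00905 RPKM in sh-NC and at 0.0277, 0.00850 and 0 RPKM in sh-*Etv5* libraries. The groups overlapped, and no difference was detectable at these values. In each library *Hif1a* was therefore the only one of the 2 α subunits at a level above the filter.

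The 2 EGLN hydroxylases, which sense oxygen for the pathway and are themselves HIF targets, stood at different levels. *Egln1* (chromosome 8, 124908587 to 124949324, minus strand), which encodes the main hydroxylase of the α subunit, was at 12.3, 11.5 and 12.2 RPKM in sh-NC and at 11.0, 11.8 and 11.7 RPKM in sh-*Etv5* libraries. The groups overlapped, with a log2 fold change of -0.06 (95% confidence interval -0.17 to 0.05, limma adjusted p = 0.305), which leaves room for a small change in either direction. *Egln3* (chromosome 12, 54178981 to 54203860, minus strand), a hydroxylase that is strongly hypoxia-induced in many cells, was at 0.144, 0.144 and 0.0364 RPKM in sh-NC libraries and was listed at 0 in all 3 sh-*Etv5* libraries. It did not pass the filter, and the fit of all genes without it gave a limma adjusted p of 0.0727.

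The HIF-specific targets did not move together. Of the 5 tested, *Adm*, *Bnip3* and *P4ha1* rose, *Ankrd37* fell and *Egln1* was not called, with a median log2 fold change of 0.39, or 0.17 without *Adm*. *Ankrd37* (chromosome 8, 45996902 to 46005707, minus strand), which encodes an ankyrin repeat protein and is induced by HIF-1 in many cell types, was at 5.42, 4.49 and 4.75 RPKM in sh-NC and at 2.36, 3.11 and 2.83 RPKM in sh-*Etv5* libraries. Every sh-*Etv5* library lay below every sh-NC library. Its mean fell from 4.89 ± 0.481 to 2.76 ± 0.381 RPKM (SD, n = 3), which gave a log2 fold change of -0.65 (95% confidence interval -0.85 to -0.45, limma adjusted p = 5.64e-05). Exons of *Lrp2bp* (0.0775 ± 0.0351 against 0.0231 ± 0.0289 RPKM, SD, n = 3) cover 22.7% and exons of *Ufsp2* (21.4 ± 0.858 against 34.3 ± 3.19 RPKM) cover 3.70% of its exonic bases from the opposite strand. *Ufsp2* had the higher and *Ankrd37* the lower mean in sh-*Etv5* cells, and strand of counting is not stated.

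*Adm* (chromosome 7, 110627661 to 110629820, plus strand) encodes adrenomedullin, a peptide that widens vessels. It was at 0.708, 0.780 and 0.876 RPKM in sh-NC and at 3.80, 4.77 and 4.46 RPKM in sh-*Etv5* libraries. All control values lay under 1 RPKM and all knockdown values above it. *Adm* was thus tested only because it was high in the sh-*Etv5* libraries, and its p-value carries that limit. The ratio of means was 5.51, and log2(RPKM + 1) differed by 1.58 (95% confidence interval 1.38 to 1.77, limma adjusted p = 2.66e-08). A pseudocount of 1 compresses such low values, and with a pseudocount of 0.1 the log2 fold change was 2.32.

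*Bnip3* (chromosome 7, 138890836 to 138909519, minus strand) encodes a receptor that marks mitochondria for autophagy. It was at 29.0, 28.1 and 29.6 RPKM in sh-NC and at 53.1, 55.6 and 58.8 RPKM in sh-*Etv5* libraries. The mean rose from 28.9 ± 0.737 to 55.8 ± 2.85 RPKM (SD, n = 3), giving a ratio of means of 1.93 and a log2 fold change of 0.92 (95% confidence interval 0.83 to 1.02, limma adjusted p = 8.51e-09). The groups were far apart relative to their spread. Of the 50-base sequences in its transcripts, 16.5% also occur in other genes, mainly the processed pseudogene *Gm16439*, and the antisense gene *Gm45507* covers 22.3% of its exonic bases. Neither symbol is in the table analysed here, so reads of these loci could not be set apart.

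*P4ha1* (chromosome 10, 59323296 to 59373304, plus strand) encodes the catalytic subunit of collagen prolyl hydroxylase, an enzyme of the ER. It was at 29.8, 31.3 and 29.7 RPKM in sh-NC and at 40.3, 39.8 and 39.9 RPKM in sh-*Etv5* libraries. The mean rose by 32.1%, from 30.3 ± 0.894 to 40.0 ± 0.283 RPKM (SD, n = 3), which gave a log2 fold change of 0.39 (95% confidence interval 0.31 to 0.47, limma adjusted p = 2.81e-06). This was the smallest of the 5 rises.

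Both targets that also respond to ER stress rose. *Ddit4* (chromosome 10, 59949669 to 59951834, minus strand) encodes REDD1, an inhibitor of the growth kinase complex mTORC1. It was at 3.73, 4.12 and 4.10 RPKM in sh-NC and at 21.8, 19.2 and 21.5 RPKM in sh-*Etv5* libraries. The mean rose from 3.98 ± 0.220 to 20.9 ± 1.42 RPKM (SD, n = 3), giving a ratio of means of 5.24 and a log2 fold change of 2.13 (95% confidence interval 1.99 to 2.27, limma adjusted p = 2.00e-10). By the size of the log2 fold change *Ddit4* ranked 165 of the 10738 genes tested, *Adm* 355 and *Ndrg1* 584.

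*Ndrg1* (chromosome 15, 66929318 to 66969640, minus strand) encodes a stress-responsive cytoplasmic protein known from differentiation and hypoxia, and it was also described as a gene that responds to tunicamycin, an agent that causes ER stress. It was at 42.4, 39.8 and 40.2 RPKM in sh-NC and at 100.3, 98.7 and 99.6 RPKM in sh-*Etv5* libraries. The mean rose from 40.8 ± 1.43 to 99.5 ± 0.840 RPKM (SD, n = 3), giving a ratio of means of 2.44 and a log2 fold change of 1.27 (95% confidence interval 1.19 to 1.35, limma adjusted p = 1.64e-10). In RPKM this was the largest difference among the 10 genes, 58.8, and *Ndrg1* was the gene of the highest level in both groups. Antisense *Gm17035* covers 6.35% of its exonic bases.

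**Figure D3:**
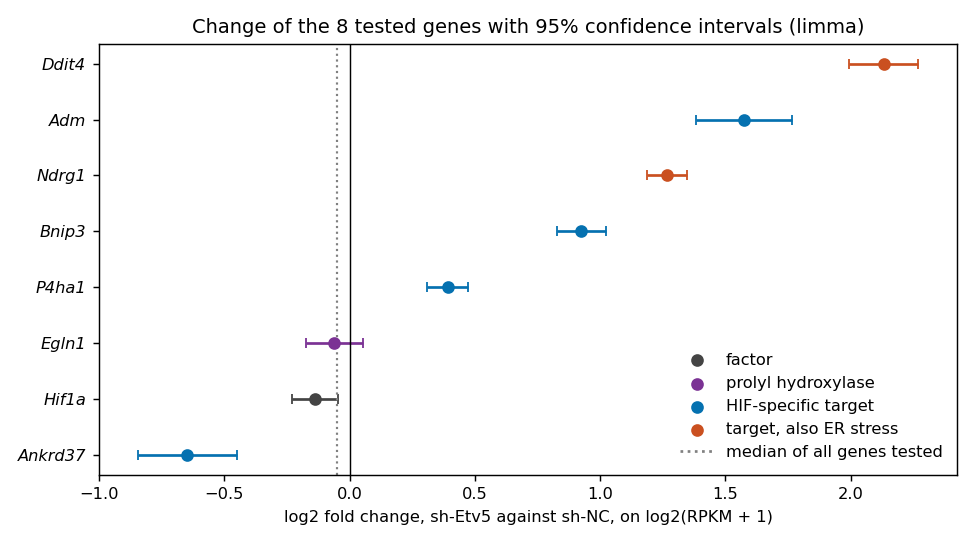
Log2 fold change (x axis, sh-*Etv5* against sh-NC on log2(RPKM + 1)) of the 8 tested genes with 95% confidence intervals, colored by role; the dotted line is the median of all genes tested (-0.05). *Ddit4* (2.13) lies at the top and *Ankrd37* (-0.65) at the bottom, and HIF-specific targets (blue) lie on both sides of 0.

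By the order of the log2 fold changes, *Ddit4* came first, followed by *Adm*, *Ndrg1*, *Bnip3* and *P4ha1*, and the 95% confidence intervals of neighbors in this order did not overlap. The order of the first pair depended on the pseudocount, since with 0.01 in place of 1 the value was 2.45 for *Adm* and 2.39 for *Ddit4*. The median of the pair also induced by ER stress was 1.70, against 0.39 for the 5 tested HIF-specific targets and 0.17 for the 4 of them that did not pass the filter through the sh-*Etv5* libraries alone. *Adm*, however, lay between the members of that pair, and the difference between the classes was not tested.

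The rest of the HIF pathway was read from a list of 15 partners, of which 13 were tested. Of these, 4 rose, 5 fell and 4 were not called, with a median log2 fold change of -0.02. Over all genes tested 33.3% were higher and 41.0% lower, with a median of -0.05, so the counts of this list lay near those shares. Like the lists below, it was chosen with earlier results of these data known, so the counts only describe the genes listed. *Siah2* and *Siah1a*, ubiquitin ligases that are known to degrade EGLN proteins, rose from 7.97 ± 0.943 to 16.1 ± 0.602 RPKM and from 3.52 ± 0.218 to 5.70 ± 0.283 RPKM (SD, n = 3), for log2 fold changes of 0.94 and 0.57. *Arnt*, the partner subunit, rose from 12.2 ± 0.429 to 14.4 ± 1.17 RPKM (log2 fold change 0.23, limma adjusted p = 0.00545). The HIF coactivators *Crebbp* (log2 fold change -0.42) and *Ep300* (-0.39) fell, as did *Cul2* (-0.28) and *Rbx1* (-0.33), which encode parts of the VHL ligase. *Hif1an*, the asparagine hydroxylase that restrains HIF, fell from 6.86 ± 0.112 to 5.62 ± 0.242 RPKM (log2 fold change -0.25, limma adjusted p = 0.00210). *Cited2*, a competitor of HIF for its coactivators, was the other gene that rose (0.22). No call was made for *Vhl* (log2 fold change 0.01, 95% confidence interval -0.14 to 0.15) and for the hydroxylase *Egln2* (-0.04, -0.17 to 0.08), nor for *Elob* and *Eloc*.

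A second list held 18 other HIF targets outside glycolysis, of which 13 were tested. Of these, 10 rose, 1 fell and 2 were not called, with a median log2 fold change of 0.38. The shares over all genes tested were 33.3% higher and 41.0% lower. The largest changes were those of *Hilpda*, a lipid droplet protein, from 7.32 ± 0.594 to 31.8 ± 0.912 RPKM (log2 fold change 1.98), of *Ero1l*, an oxidase of the ER that is itself part of the ER stress response, from 24.0 ± 0.935 to 66.3 ± 2.72 RPKM (1.43), and of *Fam162a*, a mitochondrial protein, from 81.1 ± 1.27 to 163 ± 6.73 RPKM (1.00; SD, n = 3). The 2 not called were *Kdm3a* (0.09) and *Mxi1* (-0.01). *Bhlhe40*, a repressor of transcription, was the gene that fell, from 11.3 ± 0.534 to 6.80 ± 0.374 RPKM (-0.65). With *Ankrd37*, 2 targets outside glycolysis thus fell while 10 of this list and 5 of the 8 tested genes above rose.

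Of 14 glycolytic HIF targets, 9 rose, 1 fell and 4 were not called, with a median log2 fold change of 0.22. Over all genes tested, 33.3% were higher and 41.0% lower, 74.3% in either direction. The largest rises were those of the transporters *Slc2a1* (glucose; log2 fold change 1.46) and *Slc16a3* (lactate; 0.77) and of the enzyme *Pgk1* (0.66). The 4 not called were *Gpi1* (0.06), *Eno1* (0.06), *Pgam1* (0.02) and *Ldha* (-0.05). For *Ldha*, every sh-*Etv5* library still lay below every sh-NC library. *Pdk1*, a kinase that holds pyruvate out of mitochondria, fell (-0.25). *Hif1a*, *Ankrd37*, *Bhlhe40* and *Pdk1* were therefore lower in the same libraries in which *Slc2a1*, *Hilpda* and *Bnip3* were higher.

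Genes of the ER stress response moved in these libraries too, in which 33.3% of all genes tested were higher and 41.0% lower. Of 11 tested genes of the ATF4 branch, 10 were higher and 1, *Psat1*, was lower (log2 fold change -0.14), with a median of 2.35 and the largest values for *Ddit3* (4.04), *Trib3* (3.36) and *Ppp1r15a* (3.35). Of 14 ER chaperones and targets of the IRE1 or ATF6 branches, 13 were higher and 1, *Xbp1*, was lower (-0.41), with a median of 0.67 and the largest values for *Herpud1* (2.03), *Hspa5* (1.80) and *Dnajb9* (1.64). The values of *Ddit4* and *Ndrg1* lie between the medians of the 2 ER lists, as do those of the HIF-specific targets *Adm* and *Bnip3*. Those of *P4ha1* (0.39), *Egln1* (-0.06), *Hif1a* (-0.14) and *Ankrd37* (-0.65) lie below both medians. The part of ER stress in the changes of these genes was not tested.

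**Figure D4:**
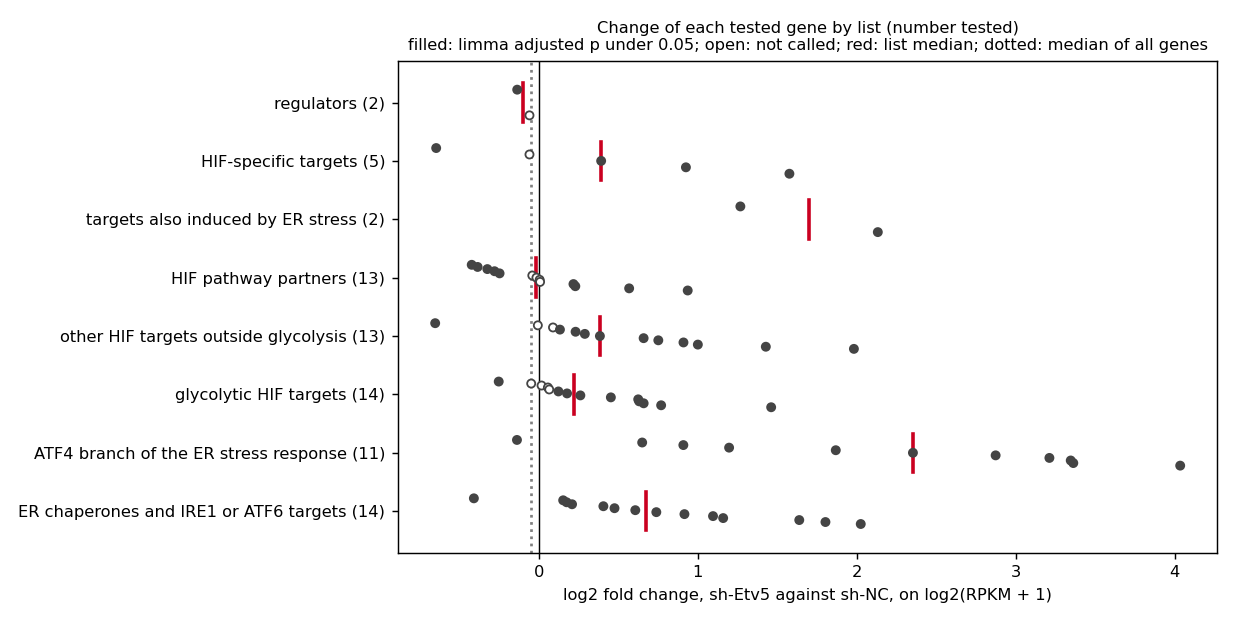
Log2 fold change (x axis) of each tested gene by list, with the number tested in parentheses; filled points had a limma adjusted p under 0.05, and red bars are list medians. The medians are 0.39 for HIF-specific targets (0.17 without *Adm*), 0.38 for other HIF targets, 0.22 for glycolytic targets, 0.67 for ER chaperones and 2.35 for the ATF4 branch.

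The directions of the 8 tested genes held, wherever the gene was tested, with every pseudocount, scaling and left-out library that was tried. Over the 6 fits that each omitted 1 library, the log2 fold change stayed between 2.10 and 2.19 for *Ddit4*, between 1.25 and 1.30 for *Ndrg1*, between 1.52 and 1.65 for *Adm* and between -0.71 and -0.57 for *Ankrd37*. *Hif1a*, between -0.16 and -0.11, was the gene whose call depended on a single library.

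**Figure D5:**
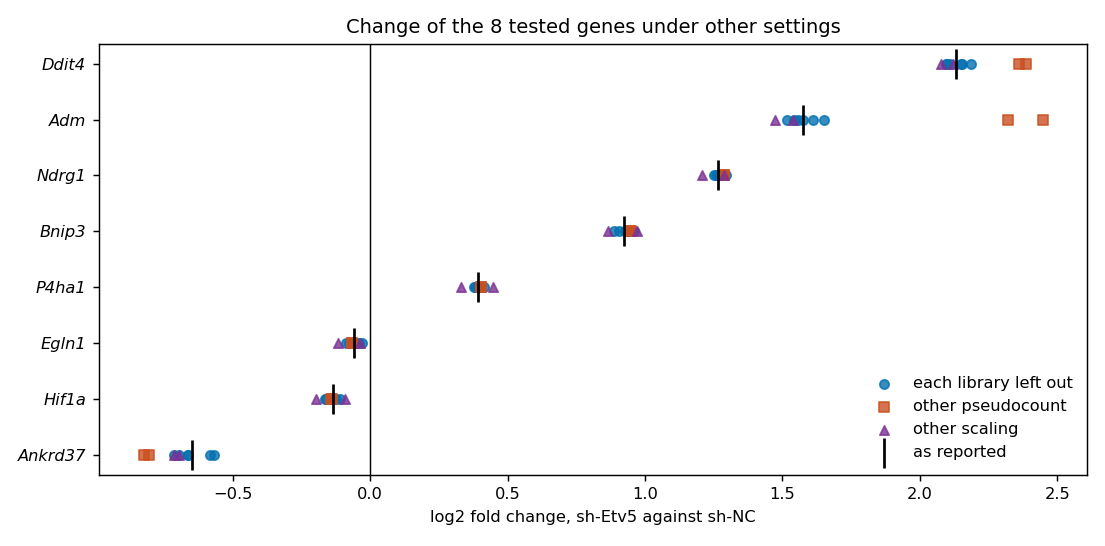
Log2 fold change (x axis) of the 8 tested genes as reported (black bar), with each library left out (circles), with pseudocounts of 0.1 and 0.01 (squares) and with other scalings (triangles). The pseudocount moved *Adm* most, from 1.58 to 2.45, and no gene crossed 0.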

How the data were processed

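Messenger RNA of 3 sh-NC and 3 sh-*Etv5* libraries of Raw264.7 cells was measured, with group and replicate as the sample labels state them. The authors deposited RPKM values, 1 per gene symbol and library, which the column names trace to coverage tracks. The labels name genome build mm10 and the study's methods name an Illumina TruSeq kit and limma, while the aligner, annotation and strand setting are not given in the sources used here. The most common ratio between libraries at low values was held by only 1.86% to 2.56% of genes under 0.3 RPKM. Read as single reads, it would put relative depth between 0.902 and 1.07 of sh-NC replicate 3. With so small a share and whole reads not recovered, depth stays uncertain. RPKM summed to between 320462 and 322949 in sh-NC and to between 330454 and 340257 in sh-*Etv5* libraries, so the sums of the groups did not overlap.

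Values were compared as log2(RPKM + 1) with limma 3.58.1 in R 4.3.3 (intensity trend, two-sided, no covariate) over genes with at least 1 RPKM in at least 3 libraries, after a test on simulated data. Annotation (GENCODE M21 on GRCm38, the assembly of mm10) and motif steps used Python 3.11.15. By rule all members are named, with the 3 largest changes of each list, its genes below the filter, the genes behind small counts, and *Arnt*, *Vhl*, *Egln2* and *Hif1an*. The text adds *Cul2*, *Rbx1*, *Ep300*, *Cited2*, *Elob* and *Eloc* after their values were seen. The same holds for the genes not called in the other HIF target lists, *Kdm3a*, *Mxi1*, *Gpi1*, *Eno1*, *Pgam1* and *Ldha*. The members, the lists and the classes of HIF-specific and ER stress targets were chosen from general knowledge with earlier results of these data known.

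The settings varied were the pseudocount (0.1 or 0.01), the filter (none, or a mean of at least 5 RPKM), and rescaling to the same sum, quantile normalization, no trend, a replicate block, each library left out, an adjusted p under 0.01 and an absolute log2 fold change above 1. List medians without genes that reached the filter through 1 group only were added after seeing the data, as were the named markers *Adgre1*, *Itgam*, *Csf1r* and *Lyz2*.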

Additional observations from a re-analysis of the deposited data

How the results depend on the processing

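The count of 5 higher genes among the HIF regulators and targets held except with a mean of at least 5 RPKM, where 4 were higher because *Adm* was not tested, and with an absolute log2 fold change above 1, where 3 were higher (*Adm*, *Ddit4*, *Ndrg1*) and 0 lower. The count of 2 lower genes was 1 without the filter, with quantile normalization and at an adjusted p under 0.01 (*Ankrd37*), 1 with a mean of at least 5 RPKM (*Hif1a*, since *Ankrd37* was not tested), and between 1 and 2 with each library left out, 1 without sh-*Etv5* replicate 1. Alternative values of single genes numbered 124, of which 14 were those of *Etv5* itself and the rest those of the tested HIF genes. Direction and side of the threshold were kept by 121, the 14 of *Etv5* among them. The other 3 were those of *Hif1a*: without the filter (-0.14), with quantile normalization (-0.09) and without sh-*Etv5* replicate 1 (-0.11). The cause was not tested. An absolute log2 fold change above 1 left 0 higher and 0 lower HIF pathway partners, 2 higher and 0 lower other HIF targets, 1 higher and 0 lower glycolytic targets, 0 lower genes of the ATF4 branch, 5 higher and 0 lower ER chaperones, and 669 higher and 322 lower genes in all. Without the filter 3 other HIF targets were lower, and 2 glycolytic targets were lower with quantile normalization and also after rescaling to equal sums. Rescaling to equal sums put the median of all genes at -0.10. A replicate block left the members' counts at 5 higher and 2 lower, changed no call among them, and gave 3539 higher and 4361 lower genes in all. Same-numbered libraries did not deviate together (correlations 0.0739, -0.0710 and -0.0352), so the numbers were not taken to pair libraries. Values of *Epas1* and *Egln3* lie near 0, and the part of read depth in this was not tested.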

Other observations

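Several HIF pathway genes lay below the filter of 1 RPKM in 3 libraries, and their limma adjusted p-values come from the fit without the filter. *Cxcr4*, a chemokine receptor and known HIF target, was at 0.849, 0.983 and 1.79 RPKM in sh-NC and at 0.174, 0.150 and 0.148 RPKM in sh-*Etv5* libraries (limma adjusted p = 0.0166), so it was lower where most other HIF targets were higher. *P4ha2*, a collagen hydroxylase related to *P4ha1*, was at 0.0377, 0.0411 and 0.0808 RPKM in sh-NC and listed at 0 in all 3 sh-*Etv5* libraries (limma adjusted p = 0.0342), the direction opposite to *P4ha1*. *Arnt2*, a relative of *Arnt*, was at 0.0159, 0 and 0 RPKM in sh-NC and at 0.208, 0.236 and 0.256 RPKM in sh-*Etv5* libraries (limma adjusted p = 0.000336). *Hif3a* and *Rora* were at most 0.0384 and 0.0774 RPKM, *Lox* and the ATF4 target *Vldlr* were at most 0.0110 and 0.000407 RPKM, and *Plod2* was listed at 0 in all 6 libraries.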
